A study of Homo sapiens with 21 samples.

Results

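This comparison sets 3 libraries of HepG2/C3A spheroids at Day 7 against 3 libraries of the same cells grown as a flat 2D monolayer, across all genes of a targeted RNA assay. It uses 6 of the 21 libraries of a time course, chosen by their labels, and Day 7 was taken because the levels of ALB and AFP peak there. HepG2/C3A is a clonal derivative of the human hepatoma line HepG2, labelled as wild type, epithelial-like and from liver, so every library comes from 1 cell line. The Day 7 spheroids were formed by forced aggregation on ultra-low attachment plates, followed by culture in a ClinoReactor, a rotating culture vessel. The monolayer is the labelled control and carries no day. The neighbouring groups used below, Day 3 and Day 10 spheroids, were made in the same way and have 3 libraries each. The labels give 1 medium, with serum and non-essential amino acids, for the line and name no compound, run or date. Every library was made from the same amount of total RNA, 100 ng, with the TempO-Seq kit, in which pairs of detector probes are joined on their target RNA and counted by sequencing. The replicates are labelled biological, with no word on how the cultures were divided, so the p-values below measure the spread between these libraries, which may be technical.

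Hepatocytes secrete most plasma proteins, make cholesterol and bile acids, detoxify ammonia and drugs, and keep these programs under transcription factors such as HNF4A and CEBPA. Hepatoma lines grown flat on plastic hold only part of this program and receive strong signals from spreading and stiffness, which act through actin, YAP and TEAD, and the ERK pathway. In a spheroid, cells contact each other on all sides and oxygen and nutrients reach the centre by diffusion.

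Each library held 36579410 to 40685329 counts at Day 7 and 26709296 to 43443262 counts in the monolayer, and 12345 of 19683 genes passed the filter on low counts. Levels are CPM, counts scaled to library sizes that were adjusted by TMM. The assay reads 1 or a few short probes per gene, so a level compares libraries of 1 gene and not genes with each other. On the first principal component, with 56.3% of the variance, Day 7 libraries averaged 45.0 ± 1.378 and monolayer libraries -137.9 ± 1.18 (SD, n = 3 each), with Day 3 at 42.3 ± 1.37 and Day 10 at 47.4 ± 1.46. All 12 hepatocyte markers of the list were tested. ALB, which served to choose Day 7, is one of them, and the other 11 were all higher at Day 7, with a median log2 fold change of 2.40. With ALB the list summed to 58116 to 66168 CPM at Day 7 and 10831 to 11495 CPM in monolayer. This sum holds the ALB values that chose Day 7 and is a description only. Of 10 endothelial markers 3 were tested, 1 of them higher (VWF) and 1 lower (TIE1), with a summed level of 1.37 to 2.13 CPM at Day 7 and 1.63 to 2.65 CPM in monolayer, and KDR, ERG and STAB2 had no count in any of the 6 libraries. CDH5 was not tested and had 10 counts over the Day 7 libraries and 0 over the monolayer libraries. Of 11 stellate and fibroblast markers 2 were tested (ACTA2 and PDGFRB) and both were higher, with a median log2 of 2.99, summing to 35.8 to 40.6 CPM at Day 7 and 8.35 to 13.4 CPM in monolayer, while COL1A1, COL1A2, COL3A1, DCN, LRAT and THY1 had no count. PDGFRB had 185 counts over the Day 7 libraries and 8 over the monolayer libraries. Of 11 leukocyte markers 4 were tested, among them CD68, CD14 and AIF1, and all 4 were higher, with a median log2 of 3.62. They summed to 82.7 to 91.1 CPM at Day 7 and 47.4 to 53.7 CPM in monolayer, mostly from CD68. CD14 had 530 counts over the Day 7 libraries and 11 over the monolayer libraries, and AIF1 had 817 and 16 counts in the same order. ITGAM, not tested, had 25 counts over the Day 7 libraries and 0 over the monolayer libraries, and PTPRC, which defines leukocytes, had no count. VWF, PDGFRB, CD14 and AIF1 had too few monolayer counts to pass the filter in that group and were tested through spheroid libraries. That these genes were higher is therefore partly set by the filter. Of 5 tested cholangiocyte markers 2 were higher and 2 lower, and they summed to 667 to 731 CPM at Day 7 and 432 to 445 CPM in monolayer, mostly from SOX9. The part of these markers in the results was not tested.

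Genes of cell division, of the secreted liver proteins and of cholesterol and fat synthesis were mostly higher at Day 7 than in monolayer cells. Those of growth factor feedback, the amino acid stress response, protein folding and the YAP and TEAD list were mostly lower. At a Benjamini-Hochberg adjusted p under 0.05 by edgeR's quasi-likelihood test, 4984 genes were higher at Day 7 (40.4% of those tested) and 4735 were lower (38.4%). With at least a 2-fold difference as a second condition, 3267 were higher (26.5%) and 2366 lower (19.2%). Differences of at least 16-fold numbered 462 higher and 176 lower. The median log2 fold change over all genes tested was 0.05. With library size alone in place of TMM this median was 0.21 and the fitted fold changes below are on the TMM scale. Where a gene had no count in a group, the bound on its fold difference was taken from library totals without TMM. Since about 4 in 10 genes passed in each direction, the count of a gene list is read against these shares and its size against the median of all genes. In bulk samples, fewer cells expressing a gene and less RNA per cell cannot be told apart.

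The 10 largest rises included genes of secreted proteins, metal binding and mitosis. FAM111A, a protease that acts at replication forks (chr11:59142748-59155039 on GRCh38, as are all coordinates of genes here), had 28.5, 26.8 and 26.7 CPM at Day 7, against 0.254, 0.458 and 0.488 CPM in monolayer, and rose 65.3-fold (log2 fold change 6.03 ± 0.17 SE, edgeR adjusted p = 5.22e-25). ITIH1, a heavy chain of the inter-alpha-trypsin inhibitors (chr3:52777592-52792068), had 43.8, 52.1 and 64.4 CPM at Day 7 and 0.466, 1.30 and 0.943 CPM in monolayer. In both the lowest Day 7 library lay far above the highest monolayer library. G6PC, the catalytic subunit that releases free glucose (chr17:42900797-42913369), had 30.6, 35.2 and 36.3 CPM at Day 7, against 0.466, 0.560 and 0.846 CPM in monolayer. LEAP2, a liver peptide that blocks the ghrelin receptor, had 199, 195 and 196 CPM at Day 7, against 3.86, 4.30 and 5.01 CPM in monolayer. Others of the 10 were ERP27, P2RY8, LCN15, MT1G and KIF20A, with fitted log2 fold changes of 5.91, 5.80, 5.72, 5.49 and 5.47.

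AREG had the largest fall, and DUSP5 and EREG were also among the 10 largest. AREG, a ligand of the EGF receptor (chr4:74445134-74455009), had 13.9, 2.45 and 2.06 CPM at Day 7, against 2302, 2619 and 2600 CPM in monolayer, with a log2 fold change of -8.69 ± 0.64 (edgeR adjusted p = 3.75e-09). All Day 7 libraries lay far below the monolayer. DUSP5, a nuclear phosphatase induced by ERK that switches ERK off (chr10:110497838-110511544), had 3.23, 1.27 and 1.25 CPM at Day 7 and 410.4, 333 and 306 CPM in monolayer (log2 fold change -7.52 ± 0.38). EREG, the neighbouring ligand gene (chr4:74365143-74388751), had 0.296, 0.0538 and 0.220 CPM at Day 7 and 27.1, 29.7 and 26.5 CPM in monolayer. The orphan receptor gene GPR83 (chr11:94377311-94401419) had 1.94, 0.727 and 0.857 CPM at Day 7, against 240.1, 227 and 227 CPM in monolayer. RGCC, GPRC5A, AHNAK2, KLHDC7B, PLEKHH2 and ATP6V0D2 made up the rest, with log2 fold changes from -8.04 for RGCC to -7.02 for PLEKHH2. Replicate 1 was the highest Day 7 library in 9 of the 10 genes, and without it all 10 were still called lower. The log2 fold change of AREG was then -10.1, that of RGCC -9.74 and that of DUSP5 -8.11, while the other 7 moved by less than 1.5 times.

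**Figure D1:**
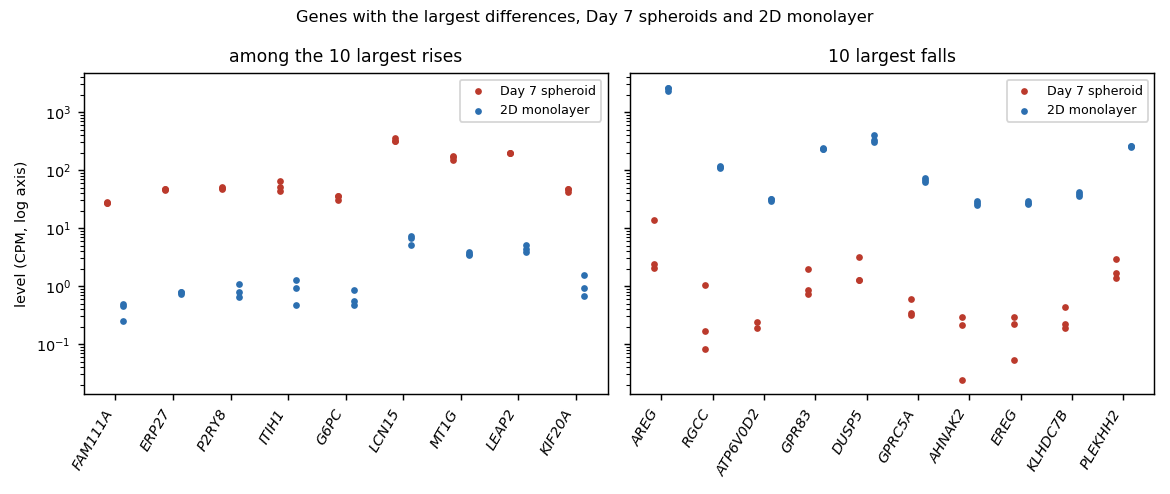
Levels (CPM, log axis) of genes among the 10 strongest rises and of the 10 strongest falls, 1 point per library, Day 7 spheroids in red on the left and 2D monolayer in blue on the right of each gene. The groups do not overlap in any gene drawn, which was a condition of their choice, and ATP6V0D2 in Day 7 replicate 3 is at 0 and not drawn.

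Mitosis and DNA replication had the highest medians of the pathway lists. All 28 tested mitosis genes were higher at Day 7, with a median log2 fold change of 4.38 and a range of 2.93 to 5.47. The summed level of the list was 1933 to 2097 CPM at Day 7 and 91.3 to 115 CPM in monolayer. MKI67, a chromosome coat protein used as a mark of cycling cells (chr10:128096659-128126385), had 123, 118 and 112 CPM at Day 7, against 4.79, 2.82 and 2.31 CPM in monolayer, a 36.7-fold difference (log2 5.20 ± 0.21, edgeR adjusted p = 1.32e-13). CDK1, the kinase that drives entry into mitosis, had 449.7, 405 and 386 CPM at Day 7, against 24.4, 19.3 and 21.96 CPM in monolayer. KIF20A, a kinesin of cytokinesis, had 46.3, 47.8 and 42.3 CPM at Day 7, against 1.57, 0.942 and 0.683 CPM in monolayer. No Day 7 library came near the monolayer in these genes. All 29 genes of DNA replication were also higher, with a median of 3.03. MCM10, which helps start the replication fork, had 122, 123 and 109 CPM at Day 7 and 4.83, 3.51 and 2.67 CPM in monolayer. RRM2, a subunit of the enzyme that makes deoxynucleotides, had 98.5, 95.5 and 85.05 CPM at Day 7 and 4.28, 2.49 and 3.42 CPM in monolayer. TYMS, which makes thymidylate, had 1292, 1185 and 1195 CPM at Day 7 and 290.2, 249 and 249 CPM in monolayer. Of 20 genes of G1 control, 12 were higher and 3 lower. E2F8, a repressor of the E2F family, had a log2 fold change of 5.30 ± 0.20. E2F2, an activating member of that family, had no count in any monolayer library and 29 counts over the Day 7 libraries. By library totals without TMM this makes it at least 8.81-fold higher against a floor of 3 counts over the monolayer group. CDKN1A, the p21 inhibitor of cyclin kinases, had 2.42, 2.37 and 2.11 CPM at Day 7 and 3.56, 3.56 and 2.64 CPM in monolayer and did not pass (log2 -0.50 ± 0.32, edgeR adjusted p = 0.157).

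Mitotic promoters often carry a CCAAT box, bound by NF-Y, upstream of the cell cycle genes homology region, bound by complexes such as DREAM and B-MYB. Promoter sequences came from RefSeq (GRCh38.p14), which matched 9932 of the 12345 tested genes, and the 250 bases before the RefSeq start were searched on both strands. The spans of genes given here come from GENCODE v29, whose gene ends can lie further out, so the stretches shown for CCNB2, KIF23, CYP3A4, CYP3A5 and ASNS overlap the spans of their genes. The letters TTTGAA or TTTAAA were found in 17 of 22 mitosis promoters, against 14.6% of the promoters of all tested genes. The letters CCAAT were found in 18 of 22, against 35.5%. The stretches before the RefSeq starts of CCNB2 (chr15:59104996-59105145, plus strand), KIF23 (chr15:69414199-69414348, plus strand) and CDK1 (chr10:60778181-60778330, plus strand) are shown because their genes are among the list with both motifs, which stand in capitals (ATTGG is CCAAT read on the other strand). A match is a description of letters and not of binding.
CCNB2: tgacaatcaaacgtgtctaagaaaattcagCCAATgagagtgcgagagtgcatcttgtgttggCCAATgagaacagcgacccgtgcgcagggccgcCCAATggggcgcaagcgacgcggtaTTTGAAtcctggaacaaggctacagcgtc
KIF23: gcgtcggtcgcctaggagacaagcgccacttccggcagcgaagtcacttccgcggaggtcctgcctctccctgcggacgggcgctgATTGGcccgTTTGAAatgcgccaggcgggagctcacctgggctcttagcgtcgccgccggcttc
CDK1: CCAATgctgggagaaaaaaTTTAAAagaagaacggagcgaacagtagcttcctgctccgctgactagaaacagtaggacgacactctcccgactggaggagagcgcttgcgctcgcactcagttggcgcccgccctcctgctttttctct
These 3 genes were 20.9-fold, 13.2-fold and 18.98-fold higher at Day 7 than in the monolayer. CCNB2, a mitotic cyclin, had 88.3, 81.9 and 76.8 CPM at Day 7 and 3.94, 3.94 and 3.90 CPM in monolayer, and KIF23, a kinesin of the midbody, had 72.2, 67.8 and 68.9 CPM at Day 7 and 5.80, 4.43 and 5.79 CPM in monolayer.

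For the replication list the E2F letters TTTGGCGC or TTTCCCGC, searched after the values were seen, stood in 12 of 26 promoters, against 3.06% of those of all tested genes. MCM6, a subunit of the replicative helicase, is given as the example (chr2:135876444-135876563, minus strand), with the match in capitals.
MCM6: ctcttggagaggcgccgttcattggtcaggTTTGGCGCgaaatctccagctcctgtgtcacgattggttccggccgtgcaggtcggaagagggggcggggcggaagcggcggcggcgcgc
MCM6 had 14.6, 11.2 and 12.4 CPM at Day 7 and 2.33, 2.11 and 1.95 CPM in monolayer, a 6.003-fold difference.

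ALB and AFP, whose levels singled out Day 7, are given as a description with no test. ALB, serum albumin (chr4:73397114-73421412), had 17068, 20494 and 19275 CPM at Day 7 and 1952, 1794 and 1822 CPM in monolayer. It had 10854, 11643 and 11961 CPM at Day 3 and 18368, 18577 and 17734 CPM at Day 10, so Days 7 and 10 overlapped. AFP, the fetal counterpart of albumin in the same gene cluster (chr4:73431138-73456174), had 18100, 19605 and 20001 CPM at Day 7 and 4064, 3548 and 3590 CPM in monolayer, with 12348, 12002 and 12286 CPM at Day 3 and 15818, 16678 and 15331 CPM at Day 10. For AFP the 3 Day 7 libraries lay above all others of the series.

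The other secreted proteins of the liver were mostly higher as well. Of the 22 tested plasma protein genes other than ALB and AFP, 18 were higher and 2 lower, with a median of 2.04. TF, transferrin, had 4701, 5415 and 6973 CPM at Day 7 and 306, 301 and 245 CPM in monolayer (log2 4.33 ± 0.18, edgeR adjusted p = 7.11e-13). TTR, which carries thyroxine and retinol-binding protein, had 3543, 3579 and 3706 CPM at Day 7 and 216, 213 and 210.1 CPM in monolayer (log2 4.08 ± 0.11, edgeR adjusted p = 2.41e-21). HPX, the haem carrier hemopexin, had 9.21, 10.8 and 10.2 CPM at Day 7 and 0.169, 0.127 and 0.358 CPM in monolayer. The Day 7 libraries of TF were spread more widely than those of TTR, and neither overlapped the monolayer. ITIH3 (chr3:52794768-52809009) was one of the 2 that were lower, with 9.80, 13.8 and 13.8 CPM at Day 7 and 20.3, 23.4 and 20.8 CPM in monolayer. Its neighbour ITIH1 was one of the largest rises. In coagulation and complement 27 of 28 were higher and none lower, with a median of 2.63. FGA, the fibrinogen alpha chain, had 1193, 1398 and 1513 CPM at Day 7 and 77.7, 67.3 and 67.7 CPM in monolayer. MBL2, the mannose-binding lectin of complement, had 93.7, 92.3 and 93.0 CPM at Day 7 and 4.45, 3.51 and 4.10 CPM in monolayer. Both stood far above every monolayer library. PLG, plasminogen, had no count in the monolayer and 55 counts over the Day 7 libraries, at least 16.7-fold higher against the floor of 3 counts over the group. All 17 tested apolipoprotein and lipoprotein genes were higher, with a median of 2.98. APOC3, which slows the clearance of triglyceride-rich particles, had 759, 803 and 827 CPM at Day 7 and 22.7, 20.1 and 19.1 CPM in monolayer (log2 5.28 ± 0.12, edgeR adjusted p = 1.43e-22). APOB, the structural protein of VLDL, had 12657, 13643 and 13348 CPM at Day 7 and 2474, 2521 and 2533 CPM in monolayer. Of 15 tested acute phase proteins 11 were higher and 2 lower, while CRP, SAA1, SAA2, LBP and APCS were not tested. Most of the tested ones are also in the 2 lists of plasma proteins and of coagulation and complement. These are HPX, SERPINA3, ITIH3, ITIH4, FGA, FGB, FGG, C3 and CFB. HP, haptoglobin, had 65.5, 70.0 and 69.3 CPM at Day 7 and 3.47, 2.34 and 2.7002 CPM in monolayer, whereas LCN2, a siderophore-binding lipocalin, had 15.8, 11.5 and 11.97 CPM at Day 7 and 296, 296 and 325 CPM in monolayer. The exact letters of the HNF1 element, GTTAAT and ATTAAC on either side of any 1 base, were in none of the 20 promoters of the plasma protein list. They were in none of the 9932 either, so this search cannot set the list apart and says nothing about HNF1.

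**Figure D2:**
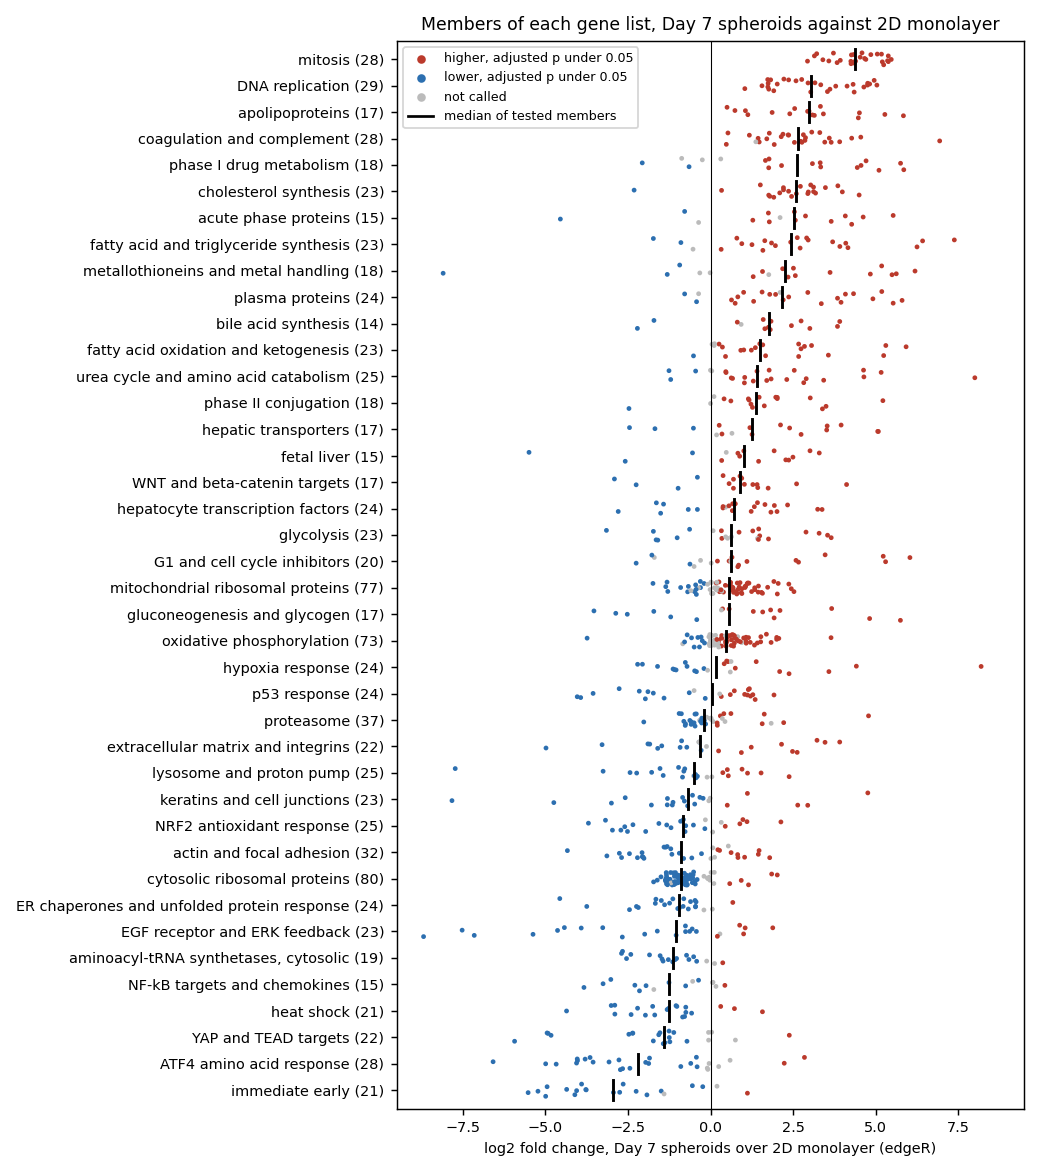
Fitted log2 fold change of every tested member of each gene list, Day 7 spheroids over 2D monolayer, with the median as a black bar and the number tested in brackets. Mitosis (median 4.38) is at the top with all members to the right of 0, and immediate early genes (median -2.94) are at the bottom.

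The factors that run the hepatocyte program were split. Of 24 hepatocyte transcription factors 17 were higher and 6 lower, with a median of 0.70. CEBPA, a factor of the quiescent hepatocyte, had 220.2, 240.4 and 249.8 CPM at Day 7 and 22.8, 23.6 and 22.1 CPM in monolayer, while its relative CEBPB, which is induced by stress and cytokines, had 69.2, 72.0 and 74.2 CPM at Day 7 and 514, 495 and 488 CPM in monolayer. CEBPA was therefore 10.4-fold higher and CEBPB 6.95-fold lower (log2 -2.80 ± 0.07, edgeR adjusted p = 1.46e-26), with no overlap in either. HNF4A, a nuclear receptor at the head of the program, had 18.01, 17.5 and 18.1 CPM at Day 7 and 6.95, 6.59 and 7.91 CPM in monolayer (log2 1.32 ± 0.11, edgeR adjusted p = 1.47e-12). FOXA2, a pioneer factor of the liver, had 24.1, 28.9 and 29.9 CPM at Day 7 and 61.5, 81.9 and 78.7 CPM in monolayer. Of 15 fetal liver genes 11 were higher and 3 lower, and without AFP these were 10 and 3 of 14. DLK1, a surface protein of hepatoblasts, had 925, 1105 and 1100 CPM at Day 7 and 130.02, 132 and 127 CPM in monolayer. HMGA2, a chromatin protein of fetal and tumour cells, had 1148, 1082 and 1083 CPM at Day 7 and 121, 109 and 108 CPM in monolayer. GPC3, a heparan sulphate proteoglycan used as a hepatoma marker, had 10215, 12125 and 11775 CPM at Day 7 and 4027, 4225 and 4208 CPM in monolayer. All 3 genes were higher without overlap. SPINK1, a trypsin inhibitor, was lower, with 0.0539, 0.0538 and 0.0980 CPM at Day 7 and 3.26, 3.31 and 3.35 CPM in monolayer.

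Of 27 phase I drug metabolism genes on the list 18 were tested, and 13 were higher and 2 lower with a median of 2.62. Among others, CYP1A2, CYP2A6, CYP2C8 and CYP2E1 did not pass the filter on low counts. CYP4F2, which oxidises vitamin K and fatty acids, had 14.8, 14.5 and 15.9 CPM at Day 7 and 0.169, 0.153 and 0.455 CPM in monolayer. AOX1, aldehyde oxidase, was lower, with 67.3, 67.6 and 59.6 CPM at Day 7 and 275, 278 and 263 CPM in monolayer. CYP2B6, the classical target of the xenobiotic receptor CAR, had 0.727, 0.431 and 0.465 CPM at Day 7 and 0.932, 0.942 and 1.11 CPM in monolayer and did not pass (edgeR adjusted p = 0.0878). Of 18 phase II conjugation genes 15 were higher and 1 lower. SULT1E1, oestrogen sulfotransferase, had 7.30, 5.33 and 5.39 CPM at Day 7 and 0, 0.254 and 0.163 CPM in monolayer. BAAT, which joins bile acids to amino acids, was the lower one, with 5.76, 5.92 and 7.08 CPM at Day 7 and 35.0, 31.5 and 37.7 CPM in monolayer. Of 17 hepatic transporters 12 were higher and 3 lower, among the higher SLC22A7 and SLC22A9, uptake carriers of organic anions, with log2 fold changes of 5.08 ± 0.39 and 5.06 ± 0.15. ABCB4, the phospholipid exporter of the bile canaliculus, was lower with a log2 fold change of -2.45 ± 0.24.

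The CYP3A cluster on chromosome 7 encodes the main drug-oxidising enzymes of adult liver (CYP3A4, with CYP3A5) and of fetal liver (CYP3A7). CYP3A4 (chr7:99756960-99784265) had 3.45, 2.58 and 4.78 CPM at Day 7 and 0, 0.102 and 0.0651 CPM in monolayer (log2 5.75 ± 0.58, edgeR adjusted p = 8.42e-11). CYP3A5 had 19.5, 20.9 and 22.5 CPM at Day 7 and 1.95, 1.91 and 2.37 CPM in monolayer, and CYP3A7 had 23.6, 33.3 and 32.4 CPM at Day 7 and 0.805, 1.48 and 1.01 CPM in monolayer. The readthrough gene CYP3A7-CYP3A51P (chr7:99685226-99735093) had 278, 310.0 and 311 CPM at Day 7 and 7.96, 7.66 and 8.36 CPM in monolayer. In all 4 the lowest Day 7 library lay above every one of the other 18 libraries of the series, whose highest values were 1.84, 14.2, 16.0 and 134 CPM. These genes are close copies, so counts can be shared between them and their single values are uncertain. CYP3A4 at Day 7 was above Day 3 by a log2 of 1.13 ± 0.38 (edgeR adjusted p = 0.034), a call that was lost when any 1 of 5 libraries was left out, with adjusted p from 0.0622 to 0.218, and above Day 10 by 1.70 ± 0.40 (edgeR adjusted p = 0.00145). For CYP3A5 these differences were 0.91 ± 0.14 and 1.09 ± 0.14, and for CYP3A7 0.99 ± 0.15 and 1.09 ± 0.15. The genes of the receptors PXR and CAR, which drive this cluster in liver, were also higher at Day 7 than in the monolayer. NR1I2, encoding PXR, had 8.40, 7.46 and 8.13 CPM at Day 7 and 3.73, 3.59 and 2.93 CPM in monolayer, and NR1I3, encoding CAR, had 2.37, 3.28 and 4.78 CPM at Day 7 and 1.44, 0.865 and 0.716 CPM in monolayer.

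PXR and CAR can bind an everted repeat with a spacer of 6 bases, and TGAACT followed after any 6 bases by AGGTCA was therefore searched, after the values were seen. These letters stood in the promoters of CYP3A4 and CYP3A5 and in no other of the 9932 promoters, and not in that of CYP3A7. The 3 stretches are shown so that the copies can be compared, with the match in capitals (chr7:99784185-99784364, chr7:99679997-99680176 and chr7:99735197-99735376, all on the minus strand).
CYP3A4: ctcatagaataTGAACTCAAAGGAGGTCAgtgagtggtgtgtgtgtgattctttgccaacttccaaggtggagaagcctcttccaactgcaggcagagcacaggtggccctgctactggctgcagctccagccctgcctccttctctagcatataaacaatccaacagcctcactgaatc
CYP3A5: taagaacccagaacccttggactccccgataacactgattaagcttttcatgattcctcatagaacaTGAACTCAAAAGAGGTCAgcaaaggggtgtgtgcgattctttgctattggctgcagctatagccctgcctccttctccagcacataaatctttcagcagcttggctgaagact
CYP3A7: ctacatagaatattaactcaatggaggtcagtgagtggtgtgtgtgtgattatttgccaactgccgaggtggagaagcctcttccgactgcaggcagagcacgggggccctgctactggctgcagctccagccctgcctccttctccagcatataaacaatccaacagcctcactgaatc
That the letters were not found in the window of CYP3A7 says nothing about the receptors.

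Lipid synthesis was higher across most of its genes. In cholesterol synthesis 22 of 23 tested genes were higher and 1 lower, with a median of 2.60. TM7SF2, a sterol reductase, had 43.6, 46.0 and 50.5 CPM at Day 7 and 1.82, 2.14 and 2.18 CPM in monolayer (log2 4.50 ± 0.13, edgeR adjusted p = 1.99e-25). FDPS, which makes farnesyl diphosphate, had 29.3, 36.96 and 37.3 CPM at Day 7 and 1.74, 2.06 and 2.67 CPM in monolayer. Replicate 1 was the lowest of the Day 7 libraries in both, still well above the monolayer. The sterol regulatory letters TCACNCCAC were in 1 of 17 promoters of the list (SREBF2), against 0.926% of all, and CCAAT was in 14 of 17. In fatty acid and triglyceride synthesis 20 of 23 were higher and 2 lower. FASN, fatty acid synthase, had 944, 1064 and 1073 CPM at Day 7 and 66.0, 72.4 and 66.0 CPM in monolayer, and SCD, the desaturase, had 1437, 1773 and 2218 CPM at Day 7 and 119, 95.1 and 104 CPM in monolayer. PNPLA3, a lipid droplet protein, had 1.94, 2.91 and 2.40 CPM at Day 7 and 0, 0.0254 and 0 CPM in monolayer. The synthesis genes named here, of both kinds, were higher without overlap between the groups, as were many of all genes tested. PLIN2, which coats lipid droplets, was lower, with 242, 222 and 225 CPM at Day 7 and 767, 786 and 739 CPM in monolayer.

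Of 23 genes of fatty acid oxidation and ketogenesis 19 were higher and 1 lower. FABP1, the fatty acid-binding protein of liver (chr2:88122982-88128116), had 773, 917 and 942 CPM at Day 7 and 25.5, 19.7 and 21.7 CPM in monolayer (log2 5.30 ± 0.15, edgeR adjusted p = 1.68e-16). In bile acid synthesis 11 of 14 were higher and 2 lower. KLB, the co-receptor for the intestinal hormone FGF19, had 337, 359 and 370.4 CPM at Day 7 and 22.96, 23.7 and 24.2 CPM in monolayer. CYP7A1, the rate-limiting enzyme, had 1.10, 0.727 and 0.637 CPM at Day 7 and 0.635, 0.305 and 0.390 CPM in monolayer and did not pass (log2 0.93 ± 0.46, edgeR adjusted p = 0.0659). AKR1C4 was lower, with 151, 155 and 138 CPM at Day 7 and 637, 739 and 685 CPM in monolayer, and can share counts with its close copies. Of 25 genes for urea and for the breakdown of amino acids 20 were higher and 3 lower. AGXT, a peroxisomal transaminase, had 146, 152 and 147 CPM at Day 7 and 4.87, 3.64 and 4.10 CPM in monolayer. CPS1, the entry enzyme of the urea cycle, had 11.7, 11.5 and 10.7 CPM at Day 7 and 2.71, 3.56 and 3.55 CPM in monolayer (log2 1.77 ± 0.16). ARG1, its last enzyme, had 1.97, 2.07 and 1.08 CPM at Day 7 and 0.127, 0.0254 and 0.0651 CPM in monolayer. The groups did not overlap in these 3 genes. TAT, tyrosine aminotransferase, was lower, with 46.2, 46.4 and 45.3 CPM at Day 7 and 110.4, 110.8 and 109 CPM in monolayer.

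Sugar metabolism was mixed. In glycolysis 12 of 23 were higher and 6 lower, and in gluconeogenesis and glycogen 10 of 17 were higher and 6 lower. LDHA, lactate dehydrogenase A, had 437, 407 and 392 CPM at Day 7 and 149, 151 and 150.5 CPM in monolayer. HK2, the hexokinase of tumour cells, had 565, 538 and 581 CPM at Day 7 and 1805, 1643 and 1646 CPM in monolayer, and PFKP, the platelet phosphofructokinase, had 6.89, 4.76 and 4.33 CPM at Day 7 and 42.96, 50.4 and 48.6 CPM in monolayer. The liver isoforms went the other way, since SLC2A2, the glucose carrier of hepatocytes, had a log2 fold change of 3.54 ± 0.19 and PKLR, the liver pyruvate kinase, one of 3.65 ± 0.65. PCK1, the first enzyme of gluconeogenesis, had 7.38, 7.32 and 8.77 CPM at Day 7 and 0.593, 0.814 and 0.390 CPM in monolayer. Of 24 genes of the hypoxia response 10 were higher and 11 lower, with a median of 0.16, a share of higher genes close to that over all genes. EPO, erythropoietin, had no count in the monolayer and 132 counts over the Day 7 libraries, at least 40.1-fold higher against the floor. VEGFA, the angiogenic growth factor, was lower, with 156, 162 and 168 CPM at Day 7 and 521, 486 and 473 CPM in monolayer (log2 -1.61 ± 0.06, edgeR adjusted p = 1.59e-21). ADM, adrenomedullin, was also lower, with 10.9, 10.04 and 11.1 CPM at Day 7 and 42.3, 57.1 and 48.6 CPM in monolayer. In metallothioneins and metal handling 12 of 18 were higher and 3 lower. MT1G, which binds zinc and copper, was among the higher with 168, 150.5 and 175 CPM at Day 7 and 3.64, 3.84 and 3.45 CPM in monolayer. Metallothionein genes are close copies and can share counts. BMP6, a signal that raises hepcidin, was among the lower with 0, 0.0269 and 0.0490 CPM at Day 7 and 7.46, 8.22 and 8.88 CPM in monolayer.

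The amino acid stress response stood at the low end. Of 28 tested genes of the ATF4 response 21 were lower and 2 higher, with a median of -2.20. ASNS, asparagine synthetase (chr7:97852118-97872542), had 31.4, 32.3 and 33.8 CPM at Day 7 and 569.9, 493 and 562 CPM in monolayer, a 16.7-fold difference (log2 -4.06 ± 0.07, edgeR adjusted p = 6.74e-30). TRIB3, a pseudokinase that restrains AKT and ATF4, had 2061, 2198 and 2230 CPM at Day 7 and 37743, 33926 and 34327 CPM in monolayer. DDIT3, the stress factor CHOP, had 17.2, 23.3 and 24.05 CPM at Day 7 and 274, 278 and 259 CPM in monolayer. The groups were widely apart in all 3, with spreads within a group that were small beside the gap. ATF3, a stress-induced factor of the same family, had 0.215, 0.162 and 0.465 CPM at Day 7 and 7.58, 10.03 and 9.89 CPM in monolayer. FGF21, a stress hormone of liver, had no count at Day 7 and 33 counts over the monolayer libraries, at least 12.1-fold lower against the floor of 3 counts over the Day 7 group. Of the serine synthesis enzymes on the list PSPH was higher, with 63.0, 74.9 and 62.2 CPM at Day 7 and 7.08, 9.93 and 10.6 CPM in monolayer. PHGDH, the first enzyme of that pathway, had 38.5, 41.8 and 41.3 CPM at Day 7 and 38.8, 46.9 and 44.5 CPM in monolayer and did not pass (edgeR adjusted p = 0.354). Of 19 cytosolic aminoacyl-tRNA synthetases 16 were lower and 1 higher, with a median of -1.15. SARS1, which charges serine tRNA, had 53.8, 46.8 and 47.5 CPM at Day 7 and 294, 329 and 337 CPM in monolayer, and IARS1, for isoleucine, was the higher one with 127, 112 and 115 CPM at Day 7 and 100.2, 86.3 and 88.0 CPM in monolayer. The ATF4 element letters TGATGNAA were in 4 of 22 promoters of the list (ASNS, ATF3, CHAC1 and FGF21), against 1.47% of all. The stretch before the RefSeq start of ASNS (chr7:97872409-97872528, minus strand) is shown as that of the list's best known target.
ASNS: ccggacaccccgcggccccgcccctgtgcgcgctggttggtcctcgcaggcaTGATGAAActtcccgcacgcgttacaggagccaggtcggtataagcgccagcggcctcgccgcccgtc

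Genes of protein folding were lower too. Of 24 genes of endoplasmic reticulum chaperones and the unfolded protein response 21 were lower and 1 higher, with a median of -0.97. HSPA5, the chaperone BiP (chr9:125234853-125241330), had 218, 203 and 207 CPM at Day 7 and 1134, 1215 and 1095 CPM in monolayer (log2 -2.46 ± 0.07, edgeR adjusted p = 1.91e-24). DNAJB9, its partner that is induced through IRE1 and XBP1, had 75.2, 67.4 and 57.3 CPM at Day 7 and 784, 962 and 939.8 CPM in monolayer. ERN1, which encodes IRE1, had 0.350, 1.45 and 1.13 CPM at Day 7 and 22.4, 24.3 and 23.1 CPM in monolayer. CRELD2 was the higher one, with 17.99, 14.2 and 15.4 CPM at Day 7 and 9.74, 11.6 and 8.36 CPM in monolayer. The endoplasmic reticulum stress element (CCAAT, any 9 bases, CCACG), bound by ATF6 with NF-Y and searched after the values were seen, was in 6 of 22 promoters of the list, against 0.151% of all, and it contains the CCAAT letters. The promoter of HSPA5 (chr9:125241344-125241493, minus strand) carries it.
HSPA5: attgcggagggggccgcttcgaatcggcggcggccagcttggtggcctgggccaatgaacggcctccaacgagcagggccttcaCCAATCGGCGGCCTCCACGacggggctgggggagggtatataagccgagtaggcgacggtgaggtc
CRELD2 also has the element, and it was higher at Day 7 while HSPA5 was lower.

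Of 21 heat shock genes 18 were lower and 3 higher. HSPA1B, an inducible HSP70, had 58.0, 61.8 and 52.5 CPM at Day 7 and 465, 447 and 474 CPM in monolayer, and is a near-identical copy of HSPA1A, so the values of both are uncertain. Of 25 genes of the NRF2 antioxidant response 17 were lower and 5 higher. GCLC, the catalytic subunit of glutathione synthesis, had 80.1, 74.5 and 65.8 CPM at Day 7 and 674, 679 and 647 CPM in monolayer. SRXN1, which repairs peroxiredoxins, had 87.9, 81.1 and 71.7 CPM at Day 7 and 957, 1116 and 1052 CPM in monolayer. Against these, HMOX1, haem oxygenase, was higher with 80.3, 76.0 and 87.1 CPM at Day 7 and 19.7, 17.4 and 18.7 CPM in monolayer, and so was NQO1, a quinone reductase, with 5768, 5282 and 5429 CPM at Day 7 and 2635, 2514 and 2529 CPM in monolayer.

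Immediate early genes, genes around the EGF receptor and genes of the YAP and TEAD list were mostly lower. Of 21 immediate early genes 18 were lower and 1 higher, with a median of -2.94. EGR1, a zinc finger factor switched on by ERK (chr5:138465490-138469315), had 2.29, 1.99 and 2.15 CPM at Day 7 and 86.6, 69.6 and 85.3 CPM in monolayer (log2 -5.23 ± 0.14, edgeR adjusted p = 3.26e-26). JUN, a subunit of AP-1, had 3.20, 1.83 and 2.79 CPM at Day 7 and 19.02, 21.99 and 19.2 CPM in monolayer. BTG2, which restrains growth, was the higher one, with 7.05, 5.76 and 8.55 CPM at Day 7 and 3.30, 3.77 and 2.77 CPM in monolayer. The AP-1 letters TGANTCA were in none of the list's 16 promoters, against 3.81% of all, and the cyclic AMP element TGACGTCA in 1 (JUND), against 2.91%. Of 23 genes of the EGF receptor and ERK feedback 17 were lower and 5 higher. HBEGF, a ligand of the receptor, had 17.6, 15.3 and 13.3 CPM at Day 7 and 688, 597 and 628 CPM in monolayer. SPRY4, a feedback inhibitor, had 18.4, 14.9 and 14.2 CPM at Day 7 and 92.4, 106 and 104 CPM in monolayer. ERBB3, a receptor of the same family, was higher, with 173, 170.2 and 168 CPM at Day 7 and 47.6, 44.5 and 46.7 CPM in monolayer.

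Of 22 genes of the YAP and TEAD list 17 were lower and 1 higher, with a median of -1.41. Beside targets the list holds genes of the pathway itself, namely YAP1, WWTR1, TEAD1, TEAD4 and WWC1. ANKRD1, a target induced by stretch (chr10:90912096-90921276), had 55.4, 38.7 and 40.9 CPM at Day 7 and 1417, 1327 and 1341 CPM in monolayer (log2 -4.92 ± 0.18, edgeR adjusted p = 2.08e-13). AXL, a receptor kinase, had 2.05, 1.43 and 0.882 CPM at Day 7 and 91.2, 90.4 and 83.2 CPM in monolayer, and CCN2, a matrix signal, had 75.1, 68.7 and 72.9 CPM at Day 7 and 228, 213 and 202 CPM in monolayer. NT5E, the ecto-enzyme CD73, was the higher one, with 77.1, 78.6 and 80.4 CPM at Day 7 and 14.7, 13.8 and 16.9 CPM in monolayer. The TEAD letters GGAATG were in 5 of 15 promoters of the list, against 9.44% of all, and among the 5 were ANKRD1 and CCN2. In actin and focal adhesion 19 of 32 were lower and 9 higher. FHL2, a LIM protein of focal adhesions, had 2.75, 2.45 and 2.35 CPM at Day 7 and 54.2, 52.5 and 45.7 CPM in monolayer, whereas ACTA2, smooth muscle actin, had 34.4, 38.1 and 38.7 CPM at Day 7 and 8.30, 13.2 and 10.4 CPM in monolayer. Members of the actin list thus lay on both sides, with no overlap of the groups in either gene. In extracellular matrix and integrins 11 of 22 were lower and 9 higher, a share of higher genes close to that over all genes. ITGA3, a laminin receptor, had 0.485, 0.404 and 0.490 CPM at Day 7 and 16.5, 14.9 and 12.6 CPM in monolayer, and COL9A2, a collagen chain, was higher with 40.1, 36.7 and 37.1 CPM at Day 7 and 2.88, 2.42 and 2.34 CPM in monolayer. In keratins and cell junctions 16 of 23 were lower and 5 higher. OCLN, occludin of tight junctions, had 85.9, 88.3 and 85.9 CPM at Day 7 and 660.3, 718 and 705 CPM in monolayer. CDH1, E-cadherin, had 59.4, 57.9 and 63.6 CPM at Day 7 and 31.9, 26.6 and 25.3 CPM in monolayer, and CLDN2, a pore-forming claudin, had 10.3, 7.08 and 8.15 CPM at Day 7 and 0.381, 0.305 and 0.260 CPM in monolayer. KRT81 had no count at Day 7 and 85 counts over the monolayer libraries, at least 31.1-fold lower against the floor.

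Of 24 p53 targets 11 were higher and 11 lower, near the shares over all genes (40.4% and 38.4%). MDM2, which degrades p53, had 2770, 2865 and 2649 CPM at Day 7 and 1204, 1243 and 1222 CPM in monolayer, while GDF15, a stress hormone, had 388, 353 and 368 CPM at Day 7 and 6132, 6174 and 5904 CPM in monolayer (log2 -4.04 ± 0.08, edgeR adjusted p = 8.34e-29). Of 15 NF-kB targets and chemokines 9 were lower and 1 higher, with CXCL8, a chemokine for neutrophils, at 1.83, 1.48 and 1.93 CPM at Day 7 and 26.5, 25.02 and 23.6 CPM in monolayer. Of 17 WNT and beta-catenin targets 13 were higher and 4 lower. RHBG, an ammonium carrier of the pericentral liver, had a log2 fold change of 4.12 ± 0.29, and DKK1, a secreted WNT inhibitor, one of -2.91 ± 0.28. In lysosome and proton pump 15 of 25 were lower and 7 higher, with SQSTM1, the autophagy receptor p62, at 102, 104 and 98.0 CPM at Day 7 and 910.4, 1015 and 977 CPM in monolayer. Of 80 cytosolic ribosomal protein genes 65 were lower and 5 higher, with a median of -0.91. RPS6, a protein of the small subunit, had 1078, 1104 and 1084 CPM at Day 7 and 2158, 2190 and 2193 CPM in monolayer. Ribosomal protein genes have many near-identical pseudogenes, so single values of this list are uncertain. The mitochondrial lists leaned the other way, with 47 of 77 mitochondrial ribosomal proteins higher and 14 lower, and 42 of 73 oxidative phosphorylation subunits higher and 10 lower. In the proteasome 19 of 37 were lower and 9 higher.

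Day 7 was then set against its neighbours, which tests whether its difference from the shared monolayer differed from that at Day 3 or Day 10. Both comparisons use the same Day 7 libraries. Between Day 7 and Day 3, 1312 genes were higher at Day 7 (10.6%) and 1081 lower (8.76%), a split that turned to 1065 higher and 1637 lower with library size alone in place of TMM. Between Day 7 and Day 10, 1664 were higher at Day 7 (13.5%) and 1718 lower (13.9%). These counts rest on single libraries more than those against the monolayer. Without Day 7 replicate 3, 867 genes were higher than at Day 3, and 617, 619, 674 and 680 were lower without Day 3 replicate 1, Day 3 replicate 2, Day 7 replicate 2 and Day 7 replicate 3. Without Day 10 replicate 1, 1088 genes were higher than at Day 10. Above both neighbours were 603 genes (4.88%) and below both likewise 603 (4.88%).

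Against Day 3, most genes of several secreted and lipid lists were higher at Day 7. Of 22 plasma protein genes without ALB and AFP 17 were higher and none lower, with a median log2 of 0.73. In coagulation and complement 21 of 28 were higher, in apolipoproteins 13 of 17, in cholesterol synthesis 16 of 23, and in phase I drug metabolism 11 of 18, with none lower in any of these lists. TTR was at 3543, 3579 and 3706 CPM at Day 7 and 1540, 1546 and 1604 CPM at Day 3 (log2 1.21 ± 0.10, edgeR adjusted p = 3.97e-09). G6PC was at 30.6, 35.2 and 36.3 CPM at Day 7 and 6.29, 5.88 and 7.65 CPM at Day 3 (log2 2.37 ± 0.22, edgeR adjusted p = 5.97e-07). CYP7A1 was at 1.10, 0.727 and 0.637 CPM at Day 7 and 0.174, 0.173 and 0.106 CPM at Day 3 (log2 2.39 ± 0.53, edgeR adjusted p = 0.00123). These 3 genes did not overlap between the days. Of 29 genes of DNA replication 11 were lower at Day 7 and none higher, and of 28 mitosis genes 1 was lower and none higher. Some of these counts rest on 1 library or on the filter. The 16 genes of cholesterol synthesis became 10 without Day 7 replicate 2 and 9 without Day 7 replicate 3. The 11 of phase I became 6 without Day 7 replicate 3, Day 3 replicate 1 or Day 3 replicate 2. The 11 replication genes became 7 without Day 7 replicate 3 or Day 3 replicate 2, 6 without Day 3 replicate 3, and 18 with no filter on low counts. For mitosis the count was 0 without Day 7 replicate 3 or Day 3 replicate 1, 2 without Day 7 replicate 1, 2 with the replicate block, 5 with library size alone and 10 with no filter.

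Against Day 10, genes of low oxygen, sugar use and cell division were lower at Day 7. In the hypoxia response 16 of 24 were lower and none higher, with a median log2 of -0.68. LOX, which crosslinks collagen, had 134, 116 and 118 CPM at Day 7 and 337, 377 and 360.1 CPM at Day 10 (log2 -1.54 ± 0.12, edgeR adjusted p = 3.18e-08). PFKFB3, which speeds glycolysis, had 1.13, 1.02 and 1.27 CPM at Day 7 and 4.43, 5.28 and 7.39 CPM at Day 10. ANKRD37, a target of HIF, had 12.7, 10.96 and 10.5 CPM at Day 7 and 35.4, 36.1 and 38.98 CPM at Day 10. Every Day 7 library lay below every Day 10 library in these genes. In glycolysis 14 of 23 were lower and none higher, with LDHA at 437, 407 and 392 CPM at Day 7 and 894, 835 and 844 CPM at Day 10. DNA replication had 24 of 29 lower and mitosis 13 of 28 lower, with none higher in either. CCNA2, cyclin A2, had 159, 158 and 166 CPM at Day 7 and 322, 297 and 272 CPM at Day 10 (log2 -0.88 ± 0.21, edgeR adjusted p = 0.00494). The proteasome had 24 of 37 lower and 1 higher (0 without Day 7 replicate 2 or 3 or Day 10 replicate 1 or 2), and cytosolic ribosomal proteins 44 of 80 lower and none higher. In the other direction, 16 of 24 p53 targets were higher at Day 7 and none lower, as were 11 of 17 hepatic transporters. MDM2 had 2770, 2865 and 2649 CPM at Day 7 and 1817, 1875 and 2047 CPM at Day 10 (log2 0.53 ± 0.06, edgeR adjusted p = 5.12e-08), and FAS, a death receptor, had 72.2, 78.1 and 85.1 CPM at Day 7 and 48.0, 49.98 and 52.6 CPM at Day 10.

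**Figure D3:**
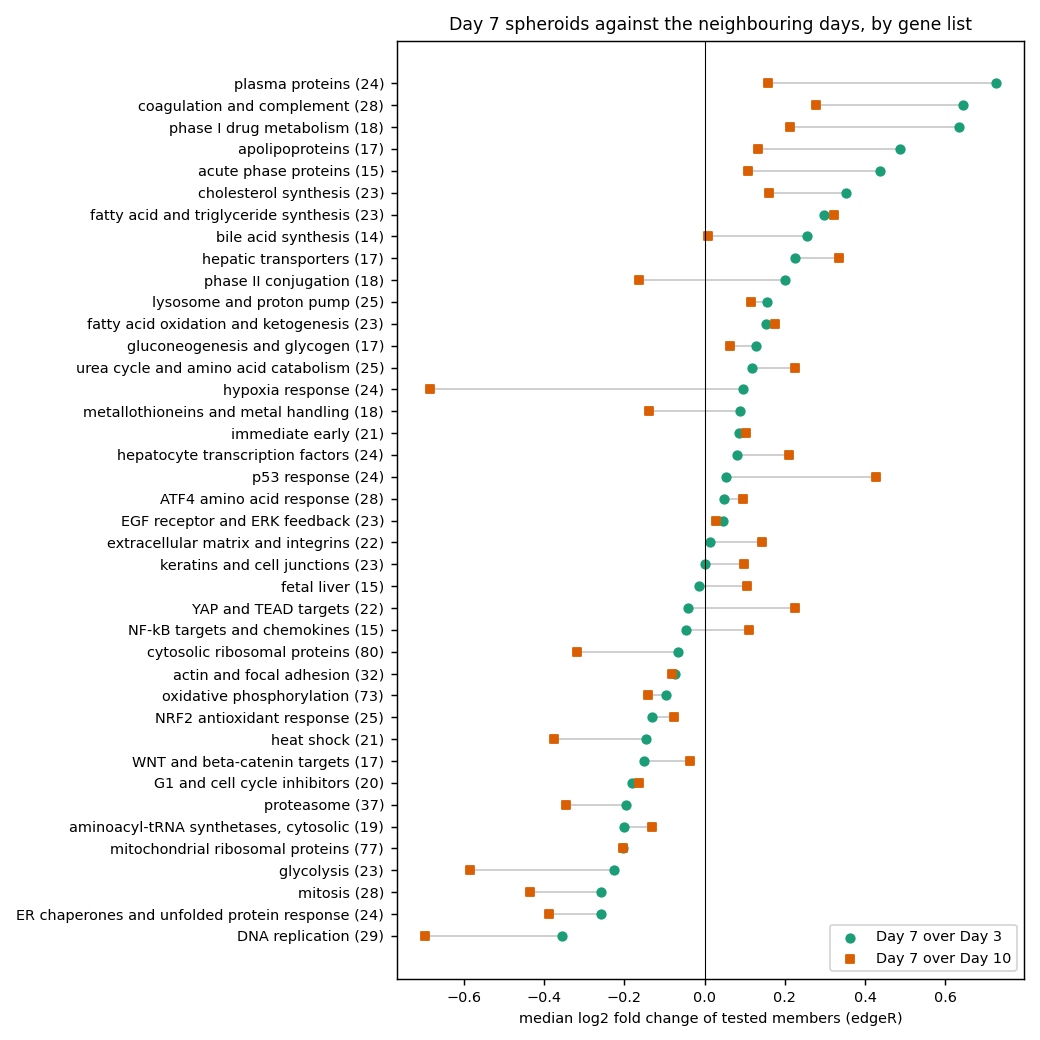
Median fitted log2 fold change of the tested members of each gene list, Day 7 over Day 3 (circles) and Day 7 over Day 10 (squares), with the number tested in brackets. Plasma proteins, which include ALB and AFP, are the highest of the pathway lists against Day 3 (0.73), and DNA replication (-0.70) and the hypoxia response (-0.68) are lowest against Day 10.

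Among the genes furthest above both neighbours were CAPN3, H2AC6, CYP3A7-CYP3A51P, RAB26 and CYGB. CAPN3, a calpain best known from muscle (chr15:42359500-42412318), had 61.4, 61.7 and 57.0 CPM at Day 7, 18.1, 17.02 and 18.1 CPM at Day 3 and 16.5, 13.2 and 17.5 CPM at Day 10, with a log2 difference of 1.76 ± 0.13 from Day 3 (edgeR adjusted p = 1.80e-11) and of 1.93 ± 0.13 from Day 10 (edgeR adjusted p = 4.28e-12). CYGB, the globin cytoglobin, had 178, 206 and 237 CPM at Day 7, 101, 95.03 and 106 CPM at Day 3 and 82.96, 78.8 and 84.7 CPM at Day 10. In CAPN3 and CYGB the Day 7 libraries stood clear of both neighbours. Among the furthest below both were SLC2A3, the high-affinity glucose carrier, with 77.2, 65.6 and 55.6 CPM at Day 7, 117, 118 and 119 CPM at Day 3 and 282, 283 and 264 CPM at Day 10. SLC2A3 can share counts with its copy SLC2A14, and its call against Day 3 was lost without Day 7 replicate 3 (edgeR adjusted p = 0.0617). CDC45, a part of the replicative helicase, had 8.37, 8.07 and 8.89 CPM at Day 7, 13.8, 13.5 and 14.3 CPM at Day 3 and 16.2, 16.5 and 14.5 CPM at Day 10. The others were ATAD3B, TRIP13, H2AC13 and ATP5F1D.

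H2AC6, a core histone gene (chr6:26124145-26139116), had 140.1, 159.9 and 163.2 CPM at Day 7 and 357, 324 and 317 CPM in monolayer, and was thus lower than in the monolayer (log2 -1.11 ± 0.11), but it had 31.5, 34.5 and 36.001 CPM at Day 3 and 52.3, 53.03 and 71.7 CPM at Day 10. Of the 28 other tested genes with symbols in H2AC or H2BC, a set put together after these values were seen, 26 were higher at Day 7 than in the monolayer and 1 lower, and against Day 10 18 were lower and none higher. The lower one, H2BC21, had the order of H2AC6, with 1.48, 1.18 and 1.74 CPM at Day 7, 3.56, 4.56 and 4.33 CPM in monolayer and 0.423, 0.242 and 0.0709 CPM at Day 3. Histone genes of a class are near-identical, so their counts can be shared.

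**Figure D4:**
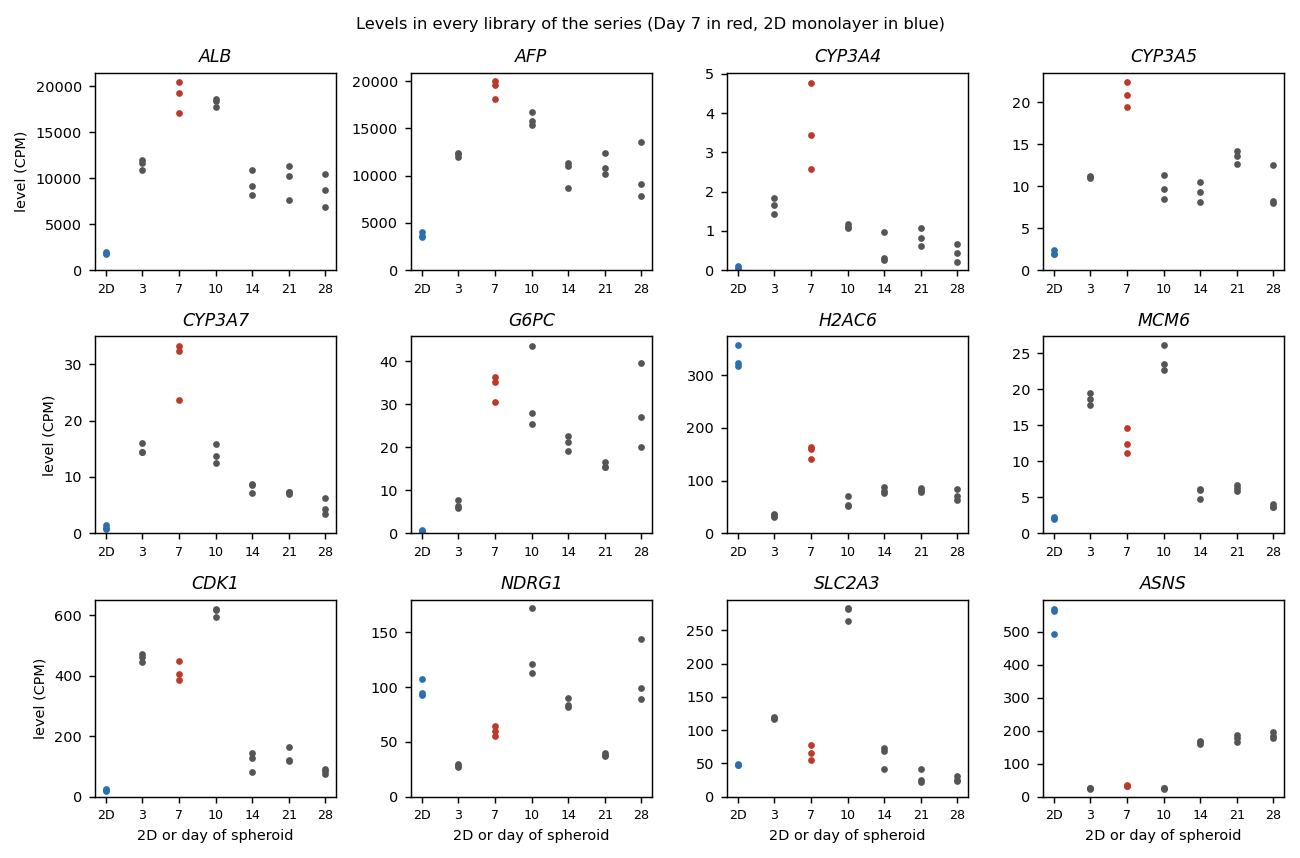
Levels (CPM) of 12 genes in every library of the series, 1 point per library, with the 2D monolayer in blue, Day 7 in red and the other days in grey. CYP3A4, CYP3A5 and CYP3A7 have all 3 Day 7 points above the other 18, ALB overlaps between Days 7 and 10, and NDRG1 and SLC2A3 are lower at Day 7 than at Day 10.

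Groups were also compared over the whole series. Of all genes tested, 365 had all 3 Day 7 libraries above the other 18 libraries of the series and 279 had all 3 below. Every group had such genes, from 129 above at Day 14 to 3282 above in the monolayer, with 345 at Day 3 and 496 at Day 10. Among 7140 genes with a Day 7 mean of at least 10 CPM 1 had libraries more than 2-fold apart, against 5 of 6794 in the monolayer. By the chi-square per degree of freedom between 2 libraries of a group, which also counts small differences of well-counted genes, the Day 7 pairs lay at 9.28 to 19.6 and the monolayer pairs at 6.62 to 12.1. On the second principal component the SD was 2.31 at Day 7 and 0.789 in the monolayer.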

How the data were processed

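The deposited table holds raw counts per gene and library, made by the authors from TempO-Seq reads. Named in the submitters' processing notes are the build GRCh38.p13, STAR 2.7.10b, fastp 0.23.2, bcl2fastq 2.20.422 and DESeq2 1.38.0, without settings. How several probes for 1 gene were combined, and how reads that map to several places were counted, is not given in the sources. Groups came from the labels. No row lacked a gene name and no column belonged to another series. Totals ran from 18760232 to 43443262 counts over the 21 libraries, and a chi-square of 5.68 or more per degree of freedom set any 2 libraries of a group apart.

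Counts were analysed in R 4.3.3 with edgeR 4.0.16. Genes passed filterByExpr with a minimum count of 10, which removed 7338 genes, of which 3403 had no count. A gene with few counts in 1 group could pass through another group, and its direction is then partly set by the filter. TMM factors, 1 quasi-likelihood fit over all 21 libraries with 7 groups, and contrasts of Day 7 with monolayer, Day 3 and Day 10 followed, and p-values were Benjamini-Hochberg adjusted over the 12345 genes. The common biological coefficient of variation was 9.62%. Standard errors were taken from the fold change and the F statistic. The fit was tested on simulated counts in which only a small part of the genes differed, equally often up and down. Here most genes were called against the monolayer, so that test does not cover the scaling of this comparison. DESeq2 1.42.0 and other settings were alternatives.

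The comparison, the gene lists, the motifs and the tests were chosen with earlier results of these data known. Genes are named by a rule: the 10 largest rises and falls with at least 10 CPM and no overlap, up to 3 called members of each list, the 6 genes furthest above and below both neighbouring days, and a few fixed names. Some genes are not reported here. Part of the others are described, and well-known members of the lists were added with their values known. Gene positions were matched by symbol. Counts of genes with close copies are uncertain.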

Additional observations from a re-analysis of the deposited data

Results flagged for a closer look

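For some genes the fitted difference from the monolayer was not the same at Day 7 as on a neighbouring day. This was tested as the contrast between the days in the edgeR fit. Over all genes such a difference between the days was called for 2393 genes between Day 7 and Day 3 and for 3382 between Day 7 and Day 10. Among the genes named by the rule, 6 of those reported differed between the days by at least 4-fold. Against Day 3, the log2 difference was 2.40 for PLG, 2.39 for CYP7A1, 2.37 for G6PC and 2.19 for H2AC6. Against Day 10 it was -2.73 for SPINK1 and -2.06 for SLC2A3. The contrast does not ask that a gene differ from the monolayer, and CYP7A1 and SLC2A3 were not called against it. SPINK1 had 0.0539, 0.0538 and 0.0980 CPM at Day 7 and 0.538, 0.327 and 0.613 CPM at Day 10. PLG had 0.431, 0.484 and 0.514 CPM at Day 7 and 0.224, 0 and 0 CPM at Day 3. Both are near the lower end of the measured range at Day 7.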

How the results depend on the processing

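The counts of genes higher and lower than in the monolayer stayed within 1.5 times of 4984 and 4735 under every alternative run of that test. They were 4962 and 4829 with DESeq2, 4920 and 4815 with RLE factors, 5531 and 4154 with library size alone, 5045 and 4720 with no filter on low counts, and 4858 and 4765 with a fit of only the 6 libraries. A test of another kind, against a 2-fold difference (glmTreat), called 2690 higher and 1821 lower. With 1 library left out, 4725 to 4894 genes were higher and 4542 to 4784 lower than in monolayer, and at least 2-fold 3151 to 3264 were higher and 2320 to 2502 lower. The same gave 867 to 1231 higher and 617 to 855 lower against Day 3, and 1088 to 1518 higher and 1374 to 1850 lower against Day 10. Library size alone gave 1637 genes lower than at Day 3, against 1081. SLC2A3 was called higher than in the monolayer with library size alone, no filter, only the 6 libraries and the replicate block, and CYP7A1 with library size alone and without monolayer replicate 1. In the other direction, genes of the naming rule lost their call against the monolayer 5 times over the settings. These losses were among the cholangiocyte markers and the p53 targets called higher, with edgeR adjusted p from 0.0516 to 0.122. Of the list counts, 172 against Day 3, 99 against Day 10 and 12 against the monolayer moved by more than 1.5 times, and 752, 825 and 996 did not. List medians moved most against the monolayer. There 59 moved by more than the median SE of the list's genes, against 2 for Day 3 and 6 for Day 10. A further 3 against the monolayer and 1 against Day 10 changed sign from a main value above that SE. The other 442, 460 and 455 did neither (monolayer, Day 3 and Day 10). The cause was not tested. The median of the hypoxia response was -0.077 with only the 6 libraries and ran from -0.067 (without Day 7 replicate 3) to 0.17 (without Day 7 replicate 1) with 1 library left out, and that of the cholangiocyte markers was -0.063 with only the 6 libraries. Against Day 10 the median of the acute phase proteins ran from -0.0024 (without Day 10 replicate 1) to 0.18 (without Day 7 replicate 1). Deviations of same-numbered libraries from their group means were hardly correlated (r from -0.021 to 0.027). This cannot show whether libraries of the same number shared a culture or a day, which the labels do not say. With the replicate number as a block 5002 genes were higher and 4747 lower than in monolayer. The block gave 1388 and 1225 against Day 3, and 1773 and 1828 against Day 10. Genes under about 1 CPM rest on few counts, and 3 libraries a group limit small differences.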

Other observations

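3 genes that interferon can induce were picked because Day 7 replicate 1 was high in them, and are given as values only. IFIT1, an antiviral RNA-binding protein, had 14.4, 0.915 and 1.74 CPM at Day 7 and 2.58, 2.57 and 3.35 CPM in monolayer and did not pass against the monolayer (log2 1.00 ± 0.73, edgeR adjusted p = 0.225). MX1, an antiviral GTPase, had 1.45, 0.0808 and 0.318 CPM at Day 7 and 0, 0.280 and 0.0325 CPM in monolayer. OASL had 1.59, 0.135 and 0.0245 CPM at Day 7 and 1.40, 0.993 and 0.586 CPM in monolayer. BHMT, which remethylates homocysteine in liver, had no count in the monolayer and 114 counts over the Day 7 libraries, at least 34.6-fold higher against the floor of 3 counts over the group. THRSP, a lipogenic protein, likewise had no count in the monolayer and 38 counts at Day 7, at least 11.5-fold higher.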
